A study of Mus musculus with 8 samples.

Results

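Neurons that release glutamate load it into synaptic vesicles with a vesicular glutamate transporter, and they recover transmitter through carriers in the plasma membrane. The 3 vesicular transporters are encoded by Slc17a6 (VGLUT2), Slc17a7 (VGLUT1) and Slc17a8 (VGLUT3). Glutamate that leaves the synapse is taken up by carriers of the SLC1 family, of which Slc1a1 (EAAT3) is found on neurons, and glia turn much of it into glutamine. Slc38a1 (SNAT1) brings glutamine into neurons, where it can be turned back into glutamate. Some midbrain dopamine neurons are known to carry Slc17a6, and some hindbrain serotonin neurons are known to carry Slc17a8, so that a second transmitter can be released beside the monoamine. The 5 genes were chosen by symbol from the 38924 genes of each count table, and all 5 had a row.

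Ribosome-bound RNA was sequenced from embryonic mouse midbrain dopamine neurons and hindbrain serotonin neurons by bacTRAP. In this method the regulatory region of a chosen gene drives a tagged ribosomal protein in 1 cell type, and ribosomes with the RNA on them are pulled out by the tag. The design text of the series gives a dopamine transporter (DAT, Slc6a3) line and a serotonin transporter (SLC6A4) line, whereas the descriptions of all 8 libraries, serotonin included, give the Slc6a3 line JD1640. No input or untagged RNA was analysed here, and RNA of cells without the tag can be carried along. Dopamine neurons gave 2 datL libraries, 2 datM libraries, 1 called Lateral and 1 called Medial, and serotonin neurons gave 2 libraries. What L and M stand for is not in the labels. Per the labels, tissue was taken on embryonic day 15, and midbrain called day 18 was taken on day 15 and then held for 3 days in vitro. Only the headers of Lateral and Medial carry an E18 mark. The labels do not say whether libraries of a group came from separate animals or cultures, so the spread behind the p-values is that between these libraries and may be technical alone.

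The libraries held 22417739 to 33216710 counts. The headers of the 4 datL and datM libraries carry the word October, and those of the other 4 carry a lane 8 tag. These were taken here as different runs, which the headers do not state outright. Taken so, the run differed between most dopamine libraries and the serotonin libraries. Libraries of the same group stood far apart: among genes with a mean of at least 5 CPM (the count relative to the library total, in the usual scaling), the median gene differed 3.63-fold between the datL libraries, 3.18-fold between the datM libraries and 1.31-fold between the serotonin libraries. The labels were checked against transmitter genes. Slc6a3, the dopamine transporter, stood between 31.9 and 740 CPM in the 6 dopamine libraries (739.5 in Lateral) against 0.679 and 0.171 CPM in serotonin. Tph2, which makes the serotonin precursor, stood at 2909 and 2189 CPM in serotonin against 0 to 41.5 CPM in dopamine. Th, which makes the dopamine precursor, stood at 93.2 to 905 CPM in dopamine against 10.6 and 20.9 CPM in serotonin. Of other markers of these neurons, Nr4a2, Aldh1a1, Lmx1a, Slc6a4, Fev and Gata3 also stood apart by type, though Gata3 reached 422 CPM in datL. Slc18a2, listed for dopamine, was lower in dopamine (0 to 166 CPM) than in serotonin (275 and 305 CPM), and Pitx3, Lmx1b and Htr1a overlapped. Gad1, listed for GABA neurons, ranged from 0.208 to 624 CPM in dopamine against 77.0 and 108 CPM in serotonin. The material is bulk RNA, so fewer cells of a type and less RNA per cell cannot be told apart.

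Slc17a6 was the main vesicular glutamate transporter transcript of the dopamine libraries. The gene (ENSMUSG00000030500.5) lies on the plus strand of chromosome 7 from 51621830 to 51671125 in mm10, with 12 exon blocks covering 4319 bp. It stood at 6.79 and 195 CPM in the datL libraries (154 and 5105 counts), at 114 and 285 CPM in datM, at 76.2 CPM in Lateral and at 319.6 CPM in Medial. The serotonin libraries held 14.96 and 31.1 CPM (441 and 906 counts). Medial was highest and the first datL library was lowest, below both serotonin libraries, while the other 5 dopamine libraries stood above both.

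Slc17a8 showed the opposite distribution. The gene (ENSMUSG00000019935.10) lies on the minus strand of chromosome 10 from 89574020 to 89621253, with 13 exon blocks covering 4720 bp. The serotonin libraries held 31.5 and 14.5 CPM (929 and 423 counts). Medial held 1.52 CPM from 34 counts, with an exact 95% Poisson interval of 1.05 to 2.12 CPM. The datL, datM and Lateral libraries had 0 counts each. All 6 dopamine libraries thus stood below both serotonin libraries.

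Slc17a7, the vesicular transporter of much of the cortex, was not detected. The gene (ENSMUSG00000070570.4) lies on the plus strand of chromosome 7 from 45163921 to 45176138, with 12 exon blocks covering 2939 bp, and it had 0 counts in all 8 libraries. A count of 0 allows up to 3 counts, or 0.0903 to 0.134 CPM depending on the library. Such limits, like all count intervals here, cover counting error only, since PCR copies are not independent molecules.

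Genes of different length were compared as CPM per kilobase of exon. On that scale the level of Slc17a6 was 1.57 and 45.1 in datL, 26.3 and 65.99 in datM, 17.6 in Lateral and 74.0 in Medial. In the serotonin libraries it was 3.46 and 7.19 CPM per kilobase, beside 6.68 and 3.07 CPM per kilobase for Slc17a8. The order of these 2 transporters was therefore not the same in the serotonin libraries: Slc17a8 was ahead in the first and Slc17a6 in the second. Of the raw counts of both genes together, Slc17a8 made up 67.8% in the first serotonin library (Wilson 95% interval 65.3 to 70.2%) and 31.8% in the second (29.4 to 34.4%). It made up 0.472% in Medial (0.338 to 0.659%). In the other 5 dopamine libraries it made up 0. The upper limit of the Wilson interval was 2.43% in the first datL library, where both genes were low, and at most 0.152% elsewhere.

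**Figure D1:**
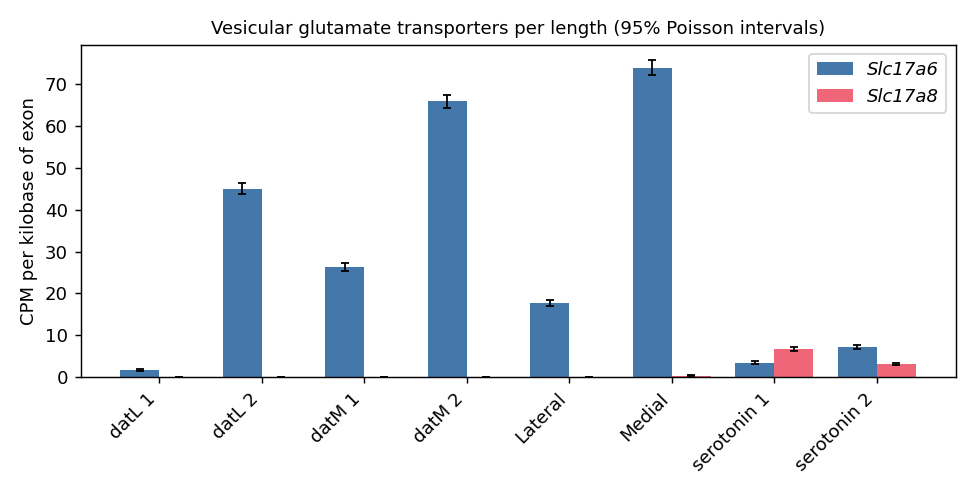
Levels of the 2 detected vesicular glutamate transporters in each library, in CPM per kilobase of exon (vertical axis), with bars for Slc17a6 and Slc17a8 and exact 95% Poisson intervals as error bars. Slc17a6 is highest at 74.0 in Medial and lowest at 1.57 in the first datL library, and Slc17a8 is visible mainly in the serotonin libraries, at 6.68 and 3.07.

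Slc1a1, a neuronal glutamate carrier, was at most 34.9 CPM in any library. The gene (ENSMUSG00000024935.4) lies on the plus strand of chromosome 19 from 28835049 to 28913960, with 12 exon blocks covering 6170 bp. It stood at 34.9 and 12.4 CPM in datL, 0.991 and 18.6 CPM in datM, 20.2 CPM in Lateral and 18.5 CPM in Medial, against 7.97 and 9.16 CPM in serotonin. Of the dopamine libraries, 5 stood above both serotonin libraries and the first datM library, with 27 counts, stood below both. Gene models on the opposite strand share 2631 bp of its exons (42.6%). Counting ignored strand, and the header's command sets no option to count reads that overlap several genes, so the level of Slc1a1 is uncertain: its mean of 2.48 CPM per kilobase over the 8 libraries would be 4.33 over the unshared exon length alone. The other 4 genes share no exonic base with another gene model.

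Slc38a1, the glutamine carrier, was present in every library. The gene (ENSMUSG00000023169.8) lies on the minus strand of chromosome 15 from 96571418 to 96642913, with 18 exon blocks covering 8391 bp. It stood at 12.5 and 126 CPM in datL, 80.9 and 36.8 CPM in datM, 128 CPM in Lateral and 49.0 CPM in Medial, against 61.2 and 79.4 CPM in serotonin. The dopamine libraries lay on both sides of the serotonin libraries, 3 above and 3 below.

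**Figure D2:**
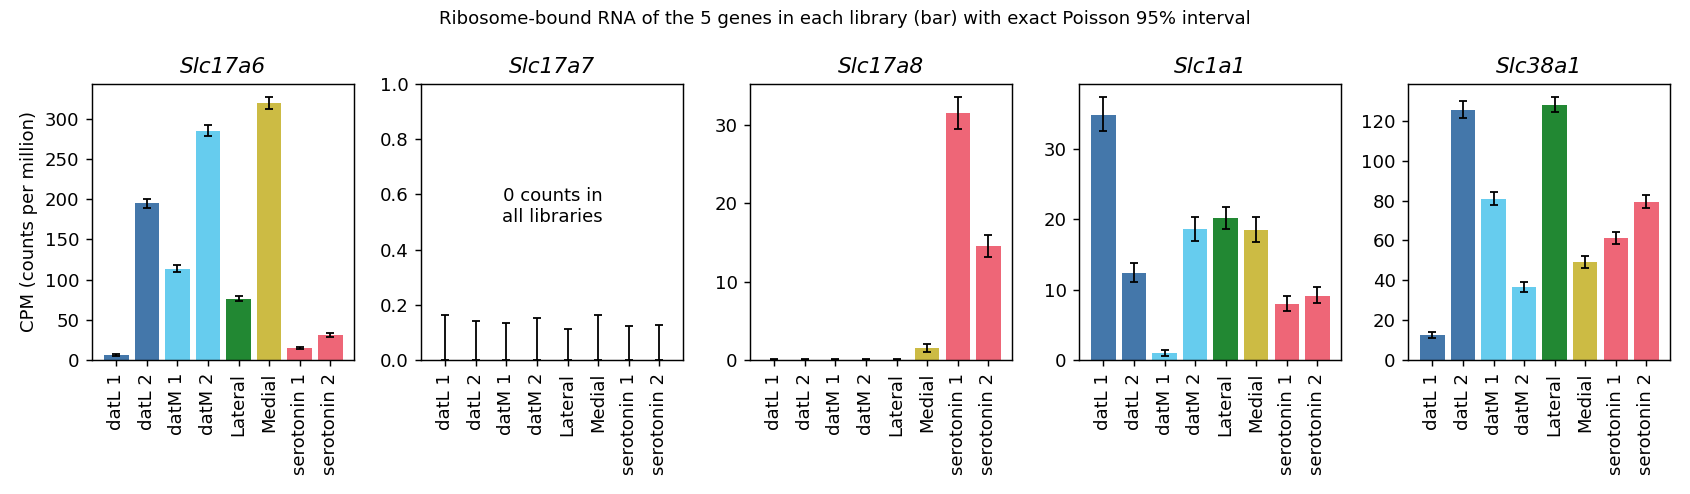
Level of each of the 5 genes (panels) in CPM on linear axes, with 1 bar per library coloured by group and exact 95% Poisson intervals as error bars. Slc17a6 spans 6.79 to 319.6 CPM among the dopamine libraries, Slc17a8 is near or at 0 there, and the libraries of Slc1a1 and Slc38a1 overlap between neuron types.

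Averaged over the 8 libraries and per kilobase of exon, Slc17a6 was highest at 30.2 ± 28.4 CPM per kilobase (SD, n = 8), followed by Slc38a1 at 8.54 ± 4.85, Slc1a1 at 2.48 ± 1.66 and Slc17a8 at 1.26 ± 2.43. Slc17a6 had the highest level of the 5 genes per kilobase in 5 of the 6 dopamine libraries. In the first datL library Slc1a1 was highest, at 5.65 CPM per kilobase, and in the serotonin libraries Slc38a1 was, at 7.29 and 9.46 CPM per kilobase. In CPM, the order of groups for Slc17a6 was Medial at 319.6, datM at 199 ± 121 (SD, n = 2), datL at 101 ± 133 (SD, n = 2), Lateral at 76.2 and serotonin at 23.0 ± 11.4 (SD, n = 2). The ranges of datM and datL overlapped, Lateral lay inside the range of datL, and the range of datL reached below serotonin. For Slc1a1 the order was datL at 23.6 ± 15.9 (SD, n = 2), Lateral, Medial, datM at 9.77 ± 12.4 (SD, n = 2) and serotonin at 8.57 ± 0.837 CPM (SD, n = 2), and neighbouring groups were not separated beyond the spread of datL and datM. For Slc38a1 it was Lateral, serotonin at 70.3 ± 12.9 (SD, n = 2), datL at 69.0 ± 80.0 (SD, n = 2), datM at 58.8 ± 31.2 (SD, n = 2) and Medial. Lateral stood above both serotonin libraries there, and the other neighbours overlapped.

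The spread of Slc17a6 within groups was large but shared by many genes. Its libraries differed 28.7-fold in datL, a ratio that 25.9% of genes with a mean of at least 5 CPM there reached or passed. They differed 2.51-fold in datM (56.3% of genes) and 2.08-fold in serotonin (16.8%). Slc17a8 differed 2.17-fold between the serotonin libraries (15.3% of genes). Slc1a1 differed 18.7-fold in datM (28.0%), and Slc38a1 10.1-fold in datL (33.4%).

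The first comparison set the 6 dopamine libraries against the 2 serotonin libraries, the contrast that the design text names. Slc17a6 averaged 166 ± 122 CPM (SD, n = 6) in dopamine against 23.0 ± 11.4 (SD, n = 2) in serotonin, a 7.21-fold ratio of means. Its edgeR log2 fold change was 2.94 (SE 1.13, adjusted p = 0.934). Slc17a8 averaged 0.253 ± 0.619 CPM (SD, n = 6) against 23.0 ± 12.03 (SD, n = 2), 91.1-fold lower by the means. Its log2 fold change was -6.55 (SE 2.67, edgeR adjusted p = 0.986). This ratio rests on Medial, the only dopamine library with counts. In the other 5 the level was at least 1024-fold lower than the serotonin mean, taking 3 counts over those libraries as the floor. That bound covers counting error only. The datL and datM libraries detected 11708 to 12509 genes, against 15357 and 15002 in serotonin and 15656 in Lateral. Slc38a7 stood at 56.5 CPM in 1 datM library and at 0 CPM in the other, so a 0 in 1 library need not hold for its group. Whether Slc17a8 RNA was lost from these libraries was not tested, and the true difference may be smaller. Slc1a1 averaged 17.6 ± 11.04 against 8.57 ± 0.837 CPM (log2 fold change 1.18, SE 1.53), and Slc38a1 averaged 72.2 ± 47.8 against 70.3 ± 12.9 CPM (log2 fold change 0.17, SE 0.81). Both differences were smaller than their errors.

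None of the 4 genes that passed the expression filter was past the threshold of an adjusted p of 0.05 by edgeR, and neither was any of the 13806 genes tested (0%). At an unadjusted p under 0.05, which 4.69% of genes reached, Slc17a6 (edgeR unadjusted p = 0.0235) was among the 2.8% higher in dopamine and Slc17a8 (edgeR unadjusted p = 0.0307) among the 1.9% lower. Slc17a8 was also among the 8.59% of genes that stood lower in every dopamine library than in either serotonin library. With limma-voom the adjusted p of Slc17a8 was 0.0404, DESeq2 gave none for it, and over the alternatives that gave one it ranged from 0.0404 to 1.00.

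Run and neuron type were separated in part by comparing the libraries of lane 8 alone, where Lateral and Medial stood against the same serotonin libraries. This comparison shares its serotonin libraries with the first and is not independent of it, and the E18 mark goes with dopamine in it, so that mark and neuron type cannot be told apart. Slc17a6 averaged 198 ± 172 CPM (SD, n = 2) in the dopamine libraries of lane 8, and both stood above both serotonin libraries. Its log2 fold change was 2.99 (SE 0.74, edgeR adjusted p = 0.281). Slc17a8 averaged 0.758 ± 1.07 CPM (SD, n = 2), both libraries below serotonin. Its log2 fold change was -5.08 (SE 2.11, edgeR adjusted p = 0.374). Slc1a1 averaged 19.3 ± 1.17 CPM (SD, n = 2), above both serotonin libraries. Its log2 fold change was 1.10 (SE 0.84, edgeR adjusted p = 0.654). Slc38a1 overlapped, at 88.6 ± 56.0 CPM (SD, n = 2) and a log2 fold change of 0.28 (SE 0.54).

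Again none of the 4 genes was called by edgeR, where 3 of 13400 genes (0.0224%) were. At an unadjusted p under 0.05, which 13.8% of genes reached, only Slc17a6 of the 4 did (edgeR unadjusted p = 0.00702). Of all genes tested, 25% stood above and 24.6% below serotonin in both lane 8 dopamine libraries, so the separation of Slc17a6, Slc1a1 and Slc17a8 was of a common kind. The calls and sizes turned on single libraries. With Lateral left out, edgeR gave an adjusted p of 0.0247 for Slc17a6 and 0.0476 for Slc17a8, and 2453 genes were called, with Medial then alone and assumed to vary like the serotonin libraries. With Medial left out, the log2 fold change of Slc17a6 was 1.72 (edgeR adjusted p = 0.162), and the edgeR adjusted p of Slc17a8 was 0.0645. DESeq2 on all 4 libraries gave adjusted p values of 0.000632 and 0.0320 and called 787 genes.

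Between datL and datM, whose headers all carry October, each of the differences that could be fitted was smaller than its SE. The log2 fold change of datL over datM was -0.92 (SE 1.29) for Slc17a6, 1.38 (SE 1.89) for Slc1a1 and 0.29 (SE 1.11) for Slc38a1, with edgeR adjusted p of 0.972, 0.967 and 1.00. In each case the ranges of the groups overlapped, and edgeR called 0 of 15177 genes (0%), with 6.92% at an unadjusted p under 0.05 and none of these 3 among them. The sign for Slc17a6 rested on the first datL library, and without it the log2 fold change was 0.03. The sign for Slc38a1 also rested on single libraries: it was -2.18 without the second datL library and -0.18 without the second datM library. Slc17a8 had 0 counts in all 4 libraries, so no fold is given.

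Counts of the single Lateral and Medial libraries were set side by side, with no test. Slc17a6 was 4.19-fold higher in Medial (95% interval from counting error 4.01 to 4.39) and Slc17a8 at least 16.8-fold higher there, against a floor of 3 counts in Lateral. Slc38a1 was 2.61-fold higher in Lateral (2.45 to 2.80). Slc1a1 was 1.09-fold higher in Lateral, with an interval of 0.963 to 1.23 that includes no difference on library totals. With library sizes scaled by TMM, Slc1a1 stood at 20.02 CPM in Lateral and 16.32 CPM in Medial. On that scale Slc17a6 stood at 75.6 CPM in Lateral and 282 CPM in Medial, and Slc38a1 at 127 and 43.2 CPM. These 3 Medial levels fell outside their counting intervals, so the intervals of the ratios do not cover the choice of scaling. Of the 13400 genes compared, 22.8% were at least 2-fold higher in Medial and 29% at least 2-fold higher in Lateral, so shifts of this size were common between these libraries.

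**Figure D3:**
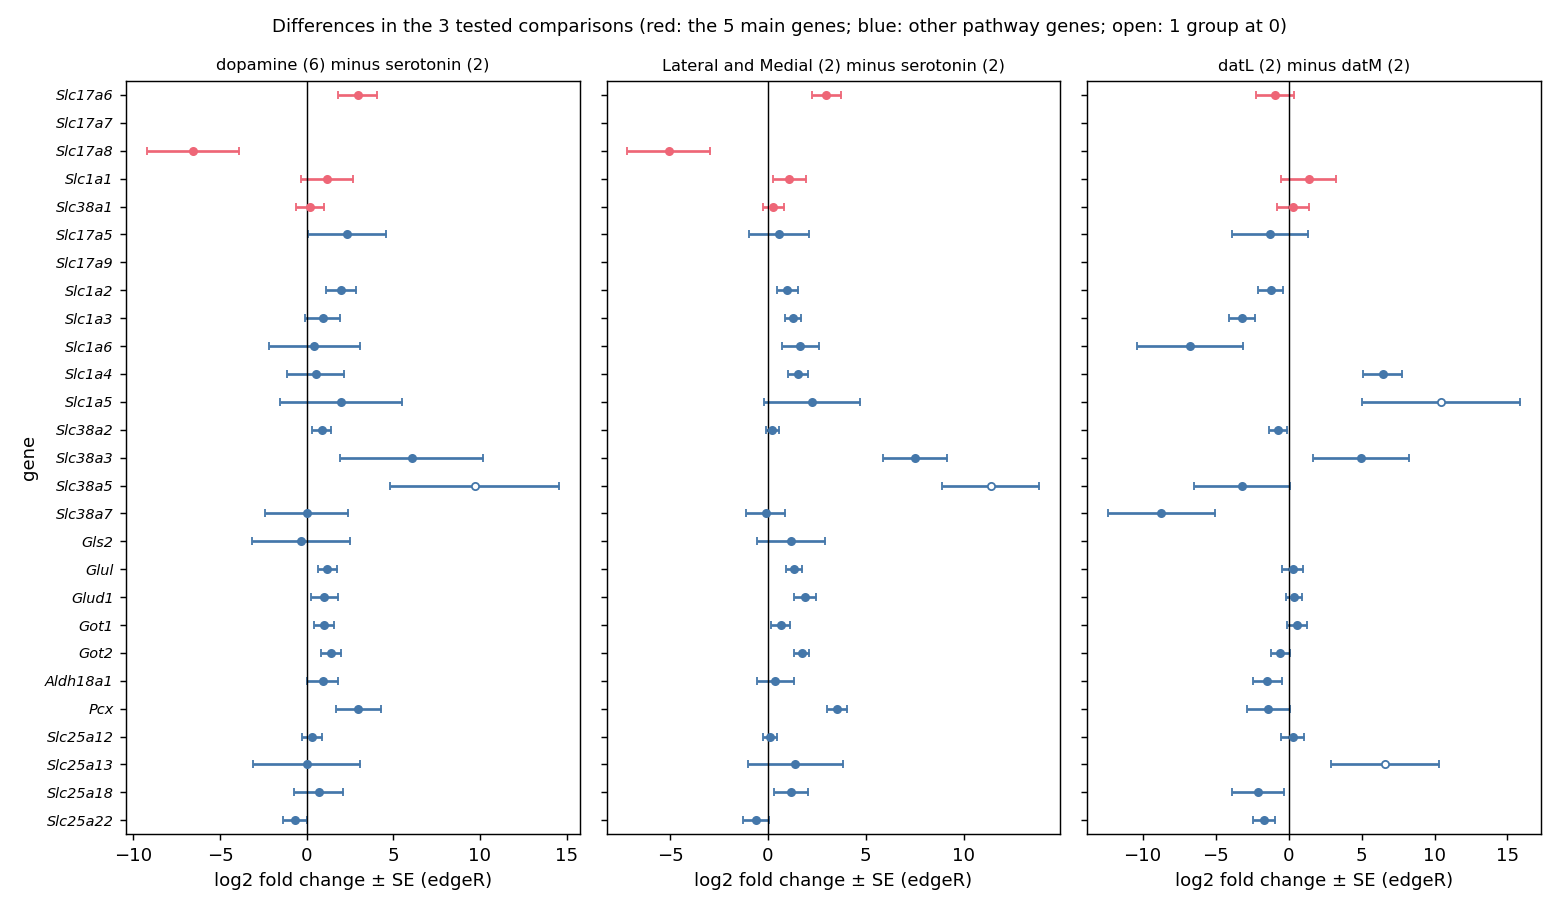
Fitted log2 fold changes with SE (horizontal axes) of the 5 genes (red) and of 22 of the 23 other glutamate pathway genes (blue) in the 3 tested comparisons; open points mark genes at 0 counts in 1 group, whose fitted value is no bound, and genes without a fold have no point. Slc17a6 lies at 2.94 and 2.99 and Slc17a8 at -6.55 and -5.08 against serotonin, while the red points of datL against datM run from -0.92 to 1.38.

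The Slc17a8 counts of Medial were set beside transcripts that define serotonin neurons. Slc6a4, the serotonin transporter, had 88 counts in Medial and 175 in Lateral, and Tph2 had 930 and 558. Fev, a transcription factor of serotonin neurons, had 7 and 3. In datL and datM, Slc6a4 and Fev had 0 counts and Tph2 had 1 count in all. Slc17a8 amounted to 2.64% and 1.35% of the Slc6a4 counts in the serotonin libraries, to 38.6% in Medial and to 0 in Lateral. Relative to Tph2 the values were 1.08%, 0.663%, 3.66% and 0. Serotonin transcripts were thus present in both lane 8 dopamine libraries. Other genes listed for serotonin neurons were less specific. In Medial, Lmx1b (12.1 CPM) and Htr1a (41.0 CPM) stood above serotonin (2.85 and 4.11 CPM, and 20.6 and 26.2 CPM). Gata3 stood at 55.9 CPM in Medial and 210 CPM in Lateral, against 601 and 602 CPM in serotonin. The part of serotonin neuron RNA in the Slc17a8 counts of Medial was not tested.

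**Figure D4:**
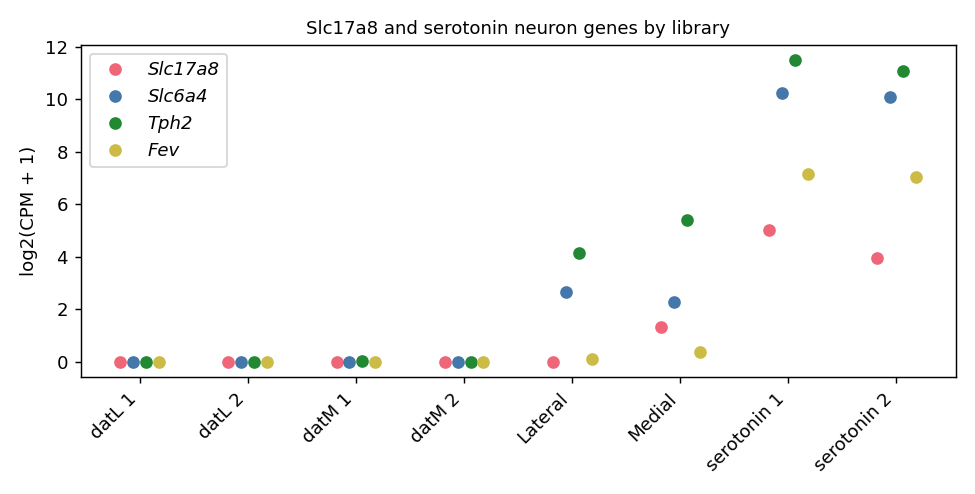
Slc17a8 beside serotonin neuron transcripts in each library, on a log2(CPM + 1) scale (vertical axis), with 1 point per transcript. The serotonin libraries stand above all others on each of the 4 transcripts, Medial holds 34 counts of Slc17a8 with 88 of Slc6a4, and Lateral holds 0 with 175.

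The level of Slc17a6 was likewise set beside 9 transcription factors of glutamate neuron lineages. Their summed level was 185 and 292 CPM in datL, 263 and 690 CPM in datM, 69.5 CPM in Lateral, 332 CPM in Medial and 68.4 and 92.1 CPM in serotonin. Of the 9, Eomes was at 0 in every library, Tlx3 was at 0 in all 6 dopamine libraries and Tbr1 was at 0 in 6 of the 8 libraries. The factor with the highest correlation to Slc17a6 was Neurod6, known from cortical neurons and from a subset of midbrain dopamine neurons. Its level was 0.0881 and 24.3 CPM in datL, 8.99 and 138 CPM in datM, 8.19 CPM in Lateral, 139 CPM in Medial and 2.48 and 11.6 CPM in serotonin. On log2(CPM + 1) the correlation with Slc17a6 was r = 0.923 over 8 libraries, against 0.698 for Neurod2, 0.455 for Neurod1, 0.332 for Pou4f1 and 0.196 for Tbr1. It was negative for the other factors with any counts, at -0.402 for Barhl1, -0.411 for Lhx9 and -0.430 for Tlx3. Tlx3 and Tbr1 reached at most 0.0686 and 0.0602 CPM, under the floor of 3 counts, so their values of r carry little meaning. Lhx9 stood at 8.50 and 46.0 CPM in datL and 24.6 CPM in Lateral, where Slc17a6 was 6.79, 195 and 76.2 CPM in turn. It stood at 0.771, 0.0416 and 0.758 CPM in datM and Medial, where Slc17a6 was 114 to 319.6 CPM. The points share their libraries and the factor was picked for its correlation, so this is a description. The part of other glutamate neurons in the level of Slc17a6 was not tested.

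By the same measure, over 10122 genes with a mean of at least 5 CPM, the genes most like Slc17a6 were Bptf (r = 0.985), Ddx42 (0.984) and Necab1 (0.982). The genes most like Slc17a8 were Cryba2 (0.996), Fev (0.974) and Slc6a4 (0.967), which all stood high in both serotonin libraries. Slc1a1 was closest to Anapc4 (0.970), Arrb1 (0.965) and Hdac6 (0.961), and Slc38a1 to Zbtb43 (0.969), Ipo13 (0.967) and Slc25a12 (0.960), the last a mitochondrial aspartate-glutamate carrier. With so many genes and 8 libraries, high values arise readily. Ranking by Spearman's rho kept 1, 2, 2 and 1 of the 3 genes in turn. Among the detected genes of the set, r ran from -0.456 for Slc1a1 with Slc38a1 to 0.432 for Slc17a6 with Slc38a1. No pair was strongly correlated, and 8 libraries are too few to exclude weaker links.

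The rest of glutamate handling was followed in 23 further genes, of which 22 passed the expression filter and Slc17a9, a vesicular nucleotide transporter, had 0 counts throughout. By edgeR none was called in any of the 3 comparisons. Against serotonin, 20 of the 22 had a positive log2 fold change with all dopamine libraries (median 0.93, beside 0.26 over all genes) and 20 of 22 within lane 8 (median 1.22, beside 0.03 over all genes). Over all genes 58.9% were positive in the first and 50.9% in the second. With all dopamine libraries 2 of the 20, Slc38a7 and Slc25a13, had fitted values of only 0.0095 and 0.0062. At an unadjusted p under 0.05, 3 of 22 were higher with all dopamine libraries (background 2.8%) and 8 of 22 within lane 8 (background 7.34%), with none lower in either. Within lane 8, 12 of the 22 stood above both serotonin libraries in both dopamine libraries, beside 25% of all genes.

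Of the 8 within lane 8, 4 were enzymes. Pcx, pyruvate carboxylase, which refills the citric acid cycle that supplies carbon for glutamate, stood at 116 CPM in Lateral and 77.8 CPM in Medial against 8.79 and 7.24 CPM in serotonin. Within lane 8 it differed by 3.52 on the log2 scale (SE 0.49, edgeR adjusted p = 0.254). Across the other dopamine libraries Pcx ranged from 2.51 CPM in the first datL library, below serotonin, to 101 CPM in the second datM library. Got2, the mitochondrial aspartate aminotransferase, averaged 213 ± 103 CPM (SD, n = 6) in dopamine against 87.9 ± 1.05 (SD, n = 2), with 5 of 6 dopamine libraries above serotonin. Its log2 fold change was 1.39 (SE 0.59) with all libraries and 1.72 (SE 0.39) within lane 8. Glud1, glutamate dehydrogenase, had a log2 fold change of 1.89 (SE 0.57) within lane 8, but Medial alone reached 513 CPM and Lateral was at 143 CPM, against 77.5 and 86.3 CPM in serotonin, and without Medial the value was 0.80. Got1, the cytosolic aminotransferase, was the highest enzyme per length at 91.6 ± 44.8 CPM per kilobase (SD, n = 8).

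Genes of the pathway that glia are known to use were also followed, and none of them was called. Glul, glutamine synthetase, averaged 176 ± 56.0 CPM (SD, n = 2) in lane 8 dopamine against 65.9 ± 29.8 (SD, n = 2), a log2 fold change of 1.33 (SE 0.43). Slc1a3, the glutamate carrier of radial glia and astrocytes, averaged 174 ± 89.3 against 67.6 ± 7.43 CPM (SD, n = 2 each), a log2 fold change of 1.26 (SE 0.41) within lane 8. With all dopamine libraries Slc1a3 differed by 0.92 on the log2 scale (SE 0.99), with 4 libraries above serotonin (62.4 and 72.9 CPM) and both datL libraries below. Slc1a2, the other glial glutamate carrier, stood in all 6 dopamine libraries (34.6 to 216 CPM) above serotonin (23.4 and 24.2 CPM), as 3.06% of all genes did. Its log2 fold change with all libraries was 2.01 (SE 0.86). The summed level of 8 astrocyte and radial glia markers ran from 1892 to 4752 CPM in dopamine against 839 and 1120 CPM in serotonin, with 6 to 8 of the 8 detected in each library and Gfap at 0 in 6 libraries. The part of glial RNA in these values was not tested.

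Among the amino acid carriers, Slc38a3, a glutamine carrier that glia also use, stood at 31.0 CPM in Lateral and 9.64 CPM in Medial but at 0.0339 and 0.171 CPM in serotonin. In datL and datM it reached at most 1.37 CPM, so its level went with the 2 lane 8 dopamine libraries rather than with dopamine as a whole. Slc38a5, a related glutamine carrier, had 4.004 CPM in Lateral and 21.0 CPM in Medial with 0 counts in serotonin, a lane 8 mean at least 244-fold higher against a floor of 3 counts over both serotonin libraries. It was at or under 0.499 CPM in datL and datM. Slc1a4, a neutral amino acid carrier, averaged 88.2 ± 51.6 CPM (SD, n = 2) in lane 8 dopamine against 28.2 ± 1.5 (SD, n = 2), a log2 fold change of 1.54 (SE 0.51) that was 0.86 without Medial. Slc38a2 was the most abundant of the other glutamine carriers per length at 25.9 ± 12.4 CPM per kilobase (SD, n = 8), Slc25a22 of the mitochondrial glutamate carriers at 26.9 ± 16.8, and Slc17a5, a lysosomal sialic acid transporter of the SLC17 family, stood at 3.498 ± 5.502 CPM per kilobase.

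Between datL and datM, 21 pathway genes had enough counts for a fold, 9 of them positive and 12 negative, with a median log2 fold change of -0.72 beside 0 over all genes. Of these, 3 had an unadjusted p under 0.05, 1 higher in datL (background 3.4%) and 2 lower (background 3.52%), each with an edgeR adjusted p of 0.597. In both datL libraries Slc1a4 stood above both datM libraries, as 11.3% of all genes did, and Slc1a3, Slc38a2, Aldh18a1 and Slc25a22 stood below, as 13.2% did. Slc1a4 stood at 27.1 and 32.4 CPM in datL against 0.330 and 0.374 CPM in datM, a log2 fold change of 6.46 (SE 1.34). Lateral and Medial went the other way, at 51.7 and 125 CPM, and with Lateral joined to datL and Medial to datM the log2 fold change was 0.06. Slc1a3 stood at 6.08 and 29.3 CPM in datL against 168 and 177 CPM in datM, a log2 fold change of -3.22 (SE 0.89), or -1.96 with Lateral and Medial joined in the same way. Among the glial markers, Nes (20.1 and 26.1 against 269 and 315 CPM), Aldh1l1 (71.1 and 171 against 586 and 373 CPM) and Vim (314 and 203 against 1405 and 483 CPM) were also lower in both datL libraries, as 13.2% of all genes were. Aqp4 was lower there too (0 to 0.0763 against 0.587 to 31.7 CPM). Hes5 went the other way, at 2.06 to 25.3 CPM in datL against 0.874 to 1.87 CPM in datM. Fabp7 and Sox9 overlapped, and Gfap was at 0 in both groups. The sum of the 8 markers, of which Fabp7 made up the most in datL (2974 and 1407 CPM), overlapped at 3556 and 1892 CPM in datL against 4752 and 2644 CPM in datM. The part of glial RNA in the Slc1a3 values was not tested. The third, Slc38a7, a lysosomal glutamine carrier, had 0.0441 and 0.0763 CPM in datL against 56.5 and 0 CPM in datM, and its sign turned without the first datM library, to a log2 fold change of 3.91.

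**Figure D5:**
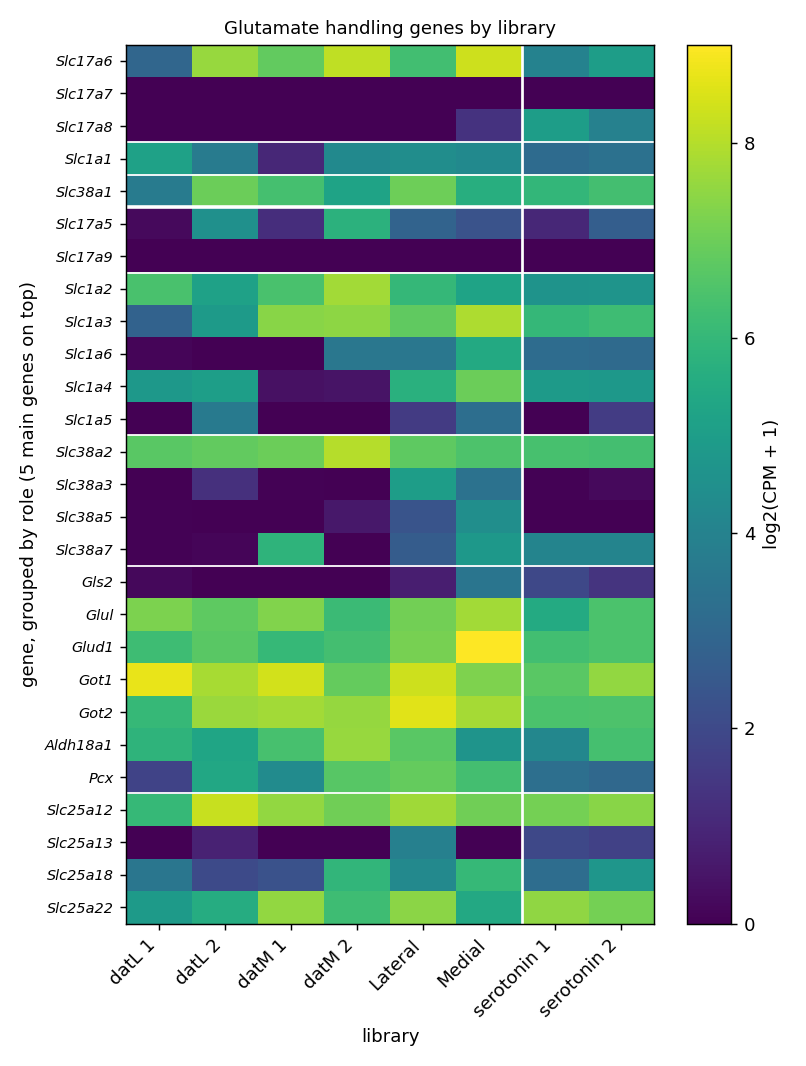
Levels of the 5 genes (top rows) and of 22 of the 23 further pathway genes (grouped by role) in each library (columns), coloured by log2(CPM + 1) from dark for 0 to yellow for high. Slc1a4 is dark in both datM libraries, Slc38a3 and Slc38a5 are brightest in Lateral and Medial, and Slc17a9 is at 0 in all 8 libraries.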

How the data were processed

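The authors deposited raw read counts per gene, 1 table for each of 8 libraries. The submitters' processing notes name STAR and mm10. Per the file headers, featureCounts 1.4.3-p1 counted reads of either strand over GENCODE M2 exons. Per the labels, cDNA was amplified by long-distance PCR and 10 further cycles, broken to about 200 bp and read as 100 bp. Symbols were matched by gene identifier for 37607 of 38924 genes.

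Tests used edgeR 4.0.16 (quasi-likelihood, TMM, filterByExpr, Benjamini-Hochberg over all genes, two-sided) in R 4.3.3 on raw counts. They were also run on simulated counts with the same spread for every gene, which does not show their power at the spread of these libraries. The datL and datM groups were compared in a fit of 5 groups over all libraries. DESeq2 1.42.0, limma 3.58.1 (voom), other filters, other groupings, the replicate number as a block and leaving out each library were alternatives. Levels are CPM by library total. Named pathway genes were the highest per length in each role and those with an unadjusted p under 0.05 in any comparison. The counts over the pathway list include 1 gene whose own values are not reported here. The members and lists were chosen with earlier results of these data known.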

Additional observations from a re-analysis of the deposited data

Results flagged for a closer look

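The 6 dopamine libraries were screened for a single library far from the others in 26 genes, and 9 were marked. Chance marks about 1 in 20 for normally distributed values, which CPM with zeros are not, and the same rule marked 27.1% of the 13748 genes tested in these libraries. The mark was given when the gap from the highest or lowest library to the next, divided by the whole range, was above 0.625. Slc17a8 in Medial stood at 1.52 CPM, with 0 in the other 5. In Medial as well, Slc1a6, a neuronal glutamate carrier best known from Purkinje cells, stood at 43.1 CPM (others 0 to 10.98), Slc38a5 at 21.0 CPM (others 0 to 4.004), Gls2, a mitochondrial enzyme, at 10.4 CPM (others 0 to 0.692) and Glud1 at 513 CPM (others 63.7 to 143). In Lateral, Slc38a3 stood at 31.0 CPM (others 0 to 9.64) and Slc25a13, a mitochondrial aspartate-glutamate carrier, at 14.1 CPM (others 0 to 0.839). In the second datM library, Slc1a2 stood at 216 CPM (others 34.6 to 85.1) and Slc38a2 at 256 CPM (others 89.5 to 124). Of the 9, 5 were in Medial and 7 in Medial or Lateral, the libraries of lane 8 with the E18 mark. How the marks of all genes fell by library was not counted, so whether this is particular to these genes cannot be said. Lateral and Medial also detected more genes (15656 and 13703) than the datL and datM libraries (11708 to 12509). Run, mark and dissection cannot be told apart there.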

How the results depend on the processing

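Of 151 alternative values for the 11 log2 fold changes of the main genes, 136 kept direction and side of the threshold, 10 changed sign and 5 passed the threshold newly. For the pathway genes 154 of 170 did, 1 changed sign and 15 passed newly. The causes were not tested. Against serotonin, edgeR called 0 genes with all dopamine libraries; DESeq2 called 133, limma-voom 14, the 5-group fit 2 and datL with datM alone 2, and leaving out single libraries gave 0 to 1. Within lane 8 it called 3; DESeq2 called 787, limma-voom 1, no expression filter 7, and leaving out single libraries gave 13 to 2453, the highest without Lateral. For datL against datM it called 0; DESeq2 called 1588, limma-voom 243, and joining Lateral to datL and Medial to datM 1, or 0 when the replicate block was added (chosen after seeing the data); leaving out single libraries gave 0 to 6.

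The log2 fold change of Slc38a1 changed sign in every comparison: to -0.0792 with limma-voom against serotonin and -0.26 with limma-voom for datL against datM. Leaving out single libraries moved it from -0.12 to 0.33 with all dopamine libraries, from -0.65 to 0.86 within lane 8 and from -2.18 to 1.15 for datL against datM. There the same step moved Slc17a6 from -4.80 to 0.0287 and Slc38a7 from -9.73 to 3.91. Same-numbered libraries did not deviate together (r of replicate differences 0.0986, 0.0150 and -0.00278), so the labels' numbers were not taken to pair them. With the replicate block, edgeR called 0 genes with all dopamine libraries and 0 for datL against datM, and Slc38a1 in the latter was -0.17. No paired analysis was possible within lane 8 because Lateral and Medial both carry number 1.

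Tests rested on groups of 2 to 6 libraries with wide spread. Depth limited only genes near 0, since 1 count was worth at most 0.0446 CPM.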
